A study of Boechera gunnisoniana with 7 samples.

Results

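The egg cell of the apomict *Boechera gunnisoniana* was compared with the other cell types of the mature female gametophyte, the central cell and the synergid cells, on 3 of the 7 microarrays of the series. A gene was called egg-high when its log2 expression value was at least 2 (4-fold) higher on the egg cell array than on both the central and the synergid cell array, and egg-low when it was at least 2 lower than on both. After removal of 64 control features, 340 of 21428 genes were egg-high (1.59%) and 5 were egg-low (0.0233%). Each of these cell types was hybridized once, so all differences between them are given as sizes, without a test.

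In flowering plants the female gametophyte consists of the egg cell, from which the embryo forms, the central cell, from which the endosperm forms, the synergids, which attract and receive the pollen tube, and the antipodals. In diplosporous apomicts such as *B. gunnisoniana* the gametophyte arises without meiotic reduction from the apomictic initial cell (AIC), and the unreduced egg cell develops into an embryo by parthenogenesis, whereas the endosperm depends on pollination. Genes that are active in the egg cell but not in its neighbours are therefore of interest for the step at which apomictic and sexual development part.

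The gametophyte samples were a pool of egg cells, a pool of central cells and a pool of synergid cells, collected by laser-assisted microdissection from sections of ovules of emasculated, otherwise untreated flowers. The other 4 arrays carried younger material from the same species: 2 pools of AICs and 2 pools of the sporophytic nucellus tissue that surrounds the AIC. All plants belonged to the triploid apomict, and no sexual plant is among the samples. According to the study's methods, the gametophyte pools hold some material of neighbouring gametophytic cells, and their amplified RNA was hybridized to ATH1 GeneChips, whose probes were designed on *Arabidopsis* transcripts. A low value can thus also stand for a *Boechera* transcript that the *Arabidopsis* probe binds poorly.

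The 3 arrays differed in background. The presence cutoff, the log2 value above which a gene counts as detected (P call), was 4.94 for the egg cell, 5.59 for the central cell and 5.29 for the synergids, and between 4.96 and 5.07 on the AIC and nucellus arrays. Above it lay 5835 genes in the egg cell (27.2% of all genes), 2986 in the central cell (13.9%) and 4149 in the synergid cells (19.4%). The median over all genes was 4.01 in the egg cell, 4.16 in the central cell and 4.10 in the synergid cells. The 99th percentile was 8.94 in the egg cell, 7.53 in the central cell and 8.51 in the synergid cells, so the central cell array had the most compressed upper range. The mean of 18 hybridization control features was 10.7 on the egg cell array, below that of the central cell (11.4) and of the synergid cells (12.5). The 25S rRNA feature was likewise lowest on the egg cell array (10.93), against 13.14 in the central cell and 11.79 in the synergid cells. The 3′ feature of the *GAPDH* control exceeded its 5′ feature by 2.75 in the egg cell, 3.52 in the central cell and 2.58 in the synergid cells. Background, control signal and the excess of the 3′ feature thus differed together with cell type, and their part in the differences below was not tested.

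The imbalance between higher and lower genes was large. Against the central cell alone, 847 genes were at least 2 higher and 39 at least 2 lower in the egg cell. Against the synergid cells alone, 488 were higher and 131 lower. By the same rule, 18 genes were high and 238 low in the central cell, and 79 were high and 13 low in the synergid cells. The egg cell thus had the most genes high against both neighbours, and the central cell the most genes low against both. In pooled cells, more cells of a type and more RNA per cell cannot be told apart.

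**Figure D1:**
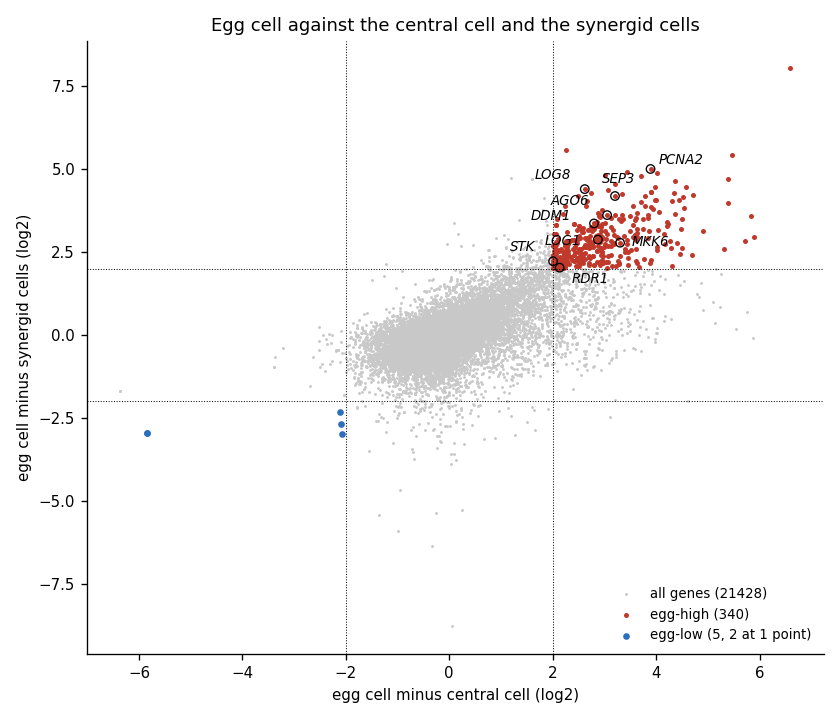
Each point is a gene; the x axis shows the egg cell minus the central cell and the y axis the egg cell minus the synergid cells, both as log2 differences. Dotted lines mark differences of 2; the 340 egg-high genes (red) fill the upper right, the 5 egg-low genes (blue) lie at the lower left, and circles mark the 9 egg-high genes named in the text from the gene lists.

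Egg-high genes outnumbered egg-low genes under each scaling run, but both numbers changed. With each array set to its own median, 406 genes were egg-high and 2 egg-low, and after quantile normalization of the 3 arrays 205 were egg-high and 8 egg-low, while the genes high in the central cell numbered 60 in place of 18. With each array expressed relative to its own presence cutoff, the counts were 636 and 2. When all values below the highest of the 3 cutoffs were raised to it, 152 and 2 genes were left. All 205 and all 152 genes belonged to the 340, which was built in for the 152, since a floor can only shrink a difference. As a yardstick for a single pair of arrays, 332 genes (1.55%) differed by at least 2 between both AIC replicates and 710 (3.31%) between both nucellus replicates, in either direction. The corresponding numbers were 886 between the egg and the central cell and 619 (2.89%) between the egg cell and the synergid cells. Single differences of this size therefore also occurred between replicates of 1 tissue, and against the synergid cells they were fewer than between the nucellus replicates.

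**Figure D2:**
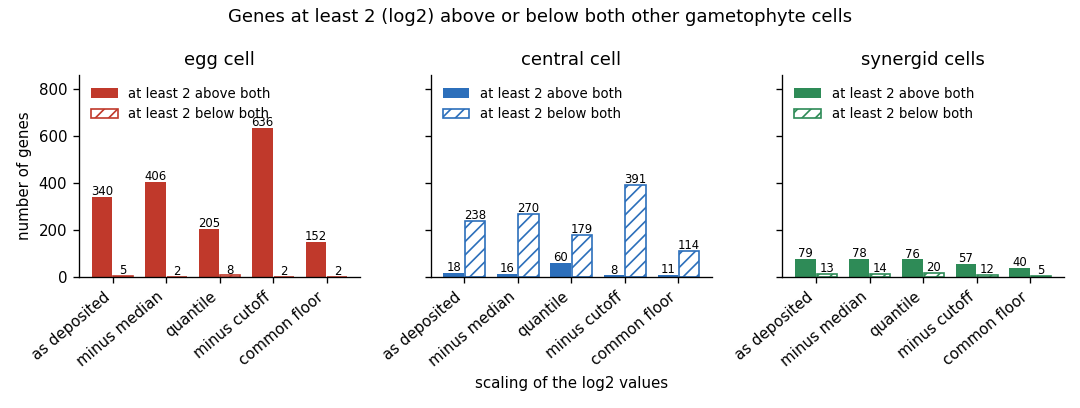
Bars show the number of genes at least 2 (log2) above (filled) or below (hatched) both other gametophyte cells, in a panel for each of these cell types, under 5 scalings of the values. The egg cell had between 152 and 636 high genes and between 2 and 8 low genes under every scaling shown.

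The 340 egg-high genes were expressed at moderate to high levels in the egg cell. Their values there ranged between 5.20 and 11.85 with a median of 7.39, while their medians were 4.47 in the central cell and 4.48 in the synergid cells. All 340 exceeded the presence cutoff in the egg cell, against 27.2% of all genes. In the central cell 58 did so (17.1%, against 13.9% of all genes), and in the synergid cells 94 (27.6%, against 19.4%). For 238 of the 340 (70%, against 8.75% of all genes) the egg cell alone of the 3 gametophyte cells was above the cutoff. In all 3, 50 were above it (14.7%, against 10.6%). A high share for the egg cell alone was built in by the rule and by the lower cutoff of the egg cell array. The difference from the nearer of the other cells, called the margin here, had a median of 2.51. It was at least 3 for 71 genes, at least 4 for 12 and at least 5 for 2. The threshold cut through a continuous distribution, since 164 genes had a margin between 2 and 2.5 and 337 genes one between 1.5 and 2.

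The largest margin belonged to AT3G26140. Its value was 11.62 in the egg cell, 5.02 in the central cell and 3.59 in the synergid cells. In the younger samples it was 3.29 and 3.31 for the AIC and 3.15 and 3.39 for the nucellus, so among the 7 arrays this transcript was above the cutoff in the egg cell only. The second largest margin was that of AT5G44680, with 8.78 in the egg cell, 3.32 in the central cell and 3.36 in the synergid cells. It was also above the cutoff on 1 of the 2 AIC arrays (3.13 and 6.47), but on neither nucellus array (3.44 and 3.35). Both genes were singled out after their values were seen, and neither is paired with a name in the sources used here.

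Egg-high genes differed widely in the younger samples, whose values had no part in their choice. Their medians were 4.97 and 5.34 on the AIC arrays and 5.02 and 4.79 on the nucellus arrays, against a median of at most 4.03 for all genes on these arrays. Above the cutoff on both AIC arrays lay 147 of the 340 (43.2%), against 21.7% of all genes, and on both nucellus arrays 121 (35.6%), against 20.2%. Conversely, 87 (25.6%) were above the cutoff in the egg cell alone among all 7 arrays. Of the 5835 genes above the egg cell cutoff 484 were, which is 2.26% of all genes. A higher share among egg-high genes was built in, since the rule asked for low values in both other gametophyte cells. All 340 were above the egg cell cutoff, against 27.2% of all genes, so the shares over all genes are not matched for detection. Levels on the 7 arrays are not independent of each other, so these shares are a description only.

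Relative to the mean of the AIC arrays, 177 of the 340 were also at least 2 higher in the egg cell, and relative to the mean of the nucellus arrays 208 were. Over all genes, 1.38% and 1.85% passed these limits. The members were chosen for a high value on the same egg cell array, so nothing is read from the excess. Against both younger sample types together, 149 of the 340 (43.8%) passed, and no share over all genes was computed for this. Against each of the 6 other arrays singly, 98 genes (0.457% of all genes) were at least 2 higher in the egg cell, all of which are egg-high by construction. In the opposite direction, 15 egg-high genes had a lower value in the egg cell than the AIC mean and 17 a lower value than the nucellus mean. Some egg-high genes thus read lower in the egg cell than in the AIC or nucellus, and others read high in the egg cell alone. Separate groups were not shown.

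**Figure D3:**
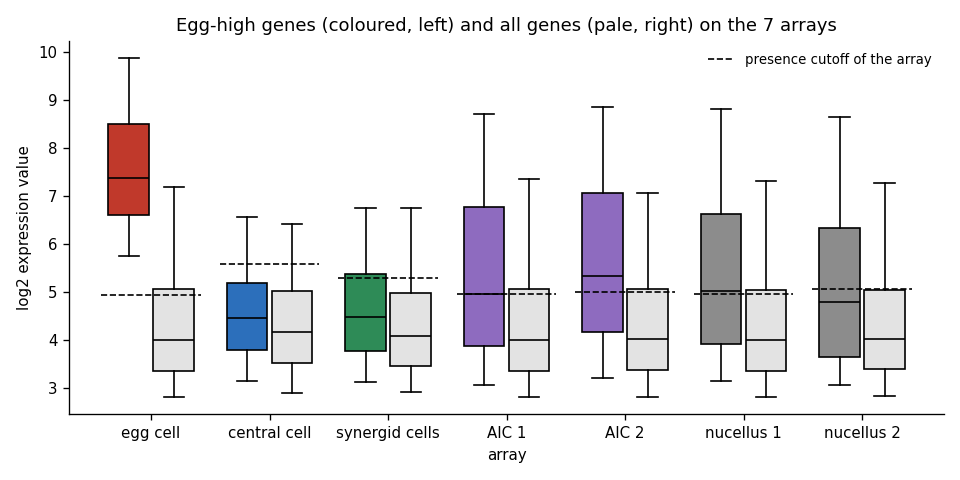
Boxes show the log2 expression values of the 340 egg-high genes (coloured) and of all 21428 genes (pale) on each of the 7 arrays, with the median, the quartiles and whiskers at the 5th and 95th percentile, and dashed lines give the presence cutoff of each array. The egg-high genes have medians of 7.39 in the egg cell and of 4.47 and 4.48 in the central and synergid cells, and of 4.79 to 5.34 on the AIC and nucellus arrays.

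The label of the egg cell array was compared with genes known as markers from *Arabidopsis*. Of 16 egg cell markers, 9 were measured, and 1 of these was above the cutoff in the egg cell, against 27.2% of all genes. *EC1.2* (AT2G21740) and *EC1.5* (AT5G64720), which encode small secreted proteins that act on sperm at fertilization, had values of 3.02 and 2.74 in the egg cell, at background. *EC1.2* had 2.78 in the central cell and 3.05 in the synergid cells, and *EC1.5* had 2.92 in the central cell and 3.23 in the synergid cells. The zygotic homeobox gene *WOX8* (AT5G45980) was at 2.73 in the egg cell, 3.05 in the central cell and 3.21 in the synergid cells. *WOX2* (AT5G59340) was at 4.92 in the egg cell, just under its cutoff, with 5.37 in the central cell and 5.47 in the synergid cells. It was above the cutoff in the synergid cells and on both AIC and both nucellus arrays. The only marker above the cutoff in the egg cell was the subtilase gene *SBT4.13* (AT5G59120), with 5.05 there, 4.21 in the central cell and 4.19 in the synergid cells. *RKD2* (AT1G74480), a factor of egg cell identity, was below the cutoff in each cell and highest in the synergid cells, with 3.63 in the egg cell, 3.49 in the central cell and 5.06 in the synergid cells. The related *RKD5* (AT4G35590) was at 3.34 in the egg cell, 4.12 in the central cell and 3.74 in the synergid cells. *ECS1* (AT1G31450), a protease gene, was at 3.67 in the egg cell, 3.14 in the central cell and 3.61 in the synergid cells, and *DMP9* (AT5G39650), a membrane protein gene, was at 2.98 in the egg cell, 3.52 in the central cell and 3.34 in the synergid cells. None of the 9 was egg-high, and their summed level on the linear scale was 128 in the egg cell, 131 in the central cell and 159 in the synergid cells. Only 2 of the 9, *WOX2* and *SBT4.13*, were above the cutoff on any of the 7 arrays, so these sums are mostly background. The low values of the other markers therefore carry no information on the label. The array is called the egg cell array by its label alone.

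The defining synergid markers were not raised on the egg cell array. *MYB98* (AT4G18770), the transcription factor that controls synergid differentiation, was at 3.18 in the egg cell and 3.91 in the central cell, against 6.61 in the synergid cells. *NTA* (AT2G17430), an MLO protein of synergids needed for pollen tube reception, was at 2.89 in the egg cell and 3.08 in the central cell, against 6.08 in the synergid cells. The synergid cell array thus carried the markers of its label, and the egg cell array had both near background. *DD31* (AT1G47470) had the same order with 2.84 in the egg cell and 2.93 in the central cell, against 4.84 in the synergid cells, below the cutoff in each. The receptor kinase gene *FER* (AT3G51550), which is expressed in synergids and in many other tissues, was the exception in its list, with 5.02 in the egg cell, 3.90 in the central cell and 4.01 in the synergid cells. Among central cell markers, *FWA* (AT4G25530), an imprinted homeobox gene, was at 3.69 in the egg cell, 4.85 in the central cell and 3.47 in the synergid cells, below the cutoff in each. *AGL80* (AT5G48670), a MADS-box gene needed for central cell differentiation, was above the cutoff in all 3, with 6.10 in the egg cell, 6.60 in the central cell and 6.14 in the synergid cells. The Polycomb gene *MSI1* (AT5G58230) was likewise above the cutoff in all 3, with 6.58 in the egg cell, 7.03 in the central cell and 6.40 in the synergid cells. The other 6 (*FIS2*, *MEA*, *AGL61*, *AGL62*, *DME* and *FIE*) were below the cutoff in all 3, with 3.16 to 4.83 in the egg cell, 3.06 to 4.83 in the central cell and 2.93 to 4.67 in the synergid cells. None of the 9 measured central cell markers and none of the 4 measured synergid markers was egg-high.

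Among markers of the ovule's sporophytic tissue, some MADS-box genes were higher on the egg cell array, while the list as a whole was not. Of 12 such markers, 4 were above the cutoff in the egg cell, none in the central cell and 1 in the synergid cells, against 27.2%, 13.9% and 19.4% of all genes on these arrays. Of the 12, 5 were highest and 4 lowest in the egg cell of the 3 cells, the median difference between the egg cell and the mean of both other cells was 0.06, and 2 were egg-high. *SEP3* (AT1G24260), a MADS-box gene of floral organ identity, was at 8.11 in the egg cell, 4.90 in the central cell and 3.92 in the synergid cells. *STK* (AT4G09960), a MADS-box gene of ovule identity, was at 5.86 in the egg cell, 3.85 in the central cell and 3.63 in the synergid cells. *SHP1* (AT3G58780), a related gene of carpel and ovule identity, followed with 6.81 in the egg cell, 4.70 in the central cell and 5.03 in the synergid cells, just short of the threshold. On the nucellus arrays *SEP3* was at 4.84 and 6.23 and *STK* at 4.92 and 3.39. Both genes were thus higher in the egg cell than in the nucellus itself. *SHP2* (AT2G42830), which acts with *SHP1*, was at 6.28 in the egg cell, 5.03 in the central cell and 5.31 in the synergid cells, and at 6.58 and 5.18 in the nucellus.

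The summed linear level of these 12 markers was 635 in the egg cell, 243 in the central cell and 215 in the synergid cells, and it ranged between 215 and 414 over the AIC and nucellus arrays. Without *SEP3* and *STK* it was 301 in the egg cell, against 198 in the central cell and 187 in the synergid cells. Other defining genes of these tissues stayed at background in the egg cell: the integument gene *INO* (AT1G23420) at 4.77, *ATS* (AT5G42630) at 3.61, *BEL1* (AT5G41410) at 3.22 and the nucellus gene *WUS* (AT2G17950) at 3.20. Others were no higher there: *ANT* (AT4G37750), a gene of ovule primordium and integument growth, was at 3.27 in the egg cell, 3.38 in the central cell and 3.75 in the synergid cells, and the seed coat gene *BAN* (AT1G61720) was at 4.02 in the egg cell, 5.33 in the central cell and 4.02 in the synergid cells. *SPL* (AT4G27330) was at 3.69 in all 3 cells, and *AG* (AT4G18960) was at 3.78 in the egg cell, 2.98 in the central cell and 3.71 in the synergid cells. *ATS*, *BEL1*, *WUS*, *ANT*, *BAN*, *SPL* and *AG* were below the cutoff on all 7 arrays, those of the nucellus included. Their low values in the egg cell therefore carry no information on sporophytic RNA. *INO* was at 7.14 on 1 nucellus array and 4.41 on the other, so the probe set for this gene can report a signal in *Boechera*. *SEP3*, *STK* and *SHP1* were thus high on the same array as the egg-high set, while *INO* was not. The part of sporophytic RNA in the other differences was not tested.

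**Figure D4:**
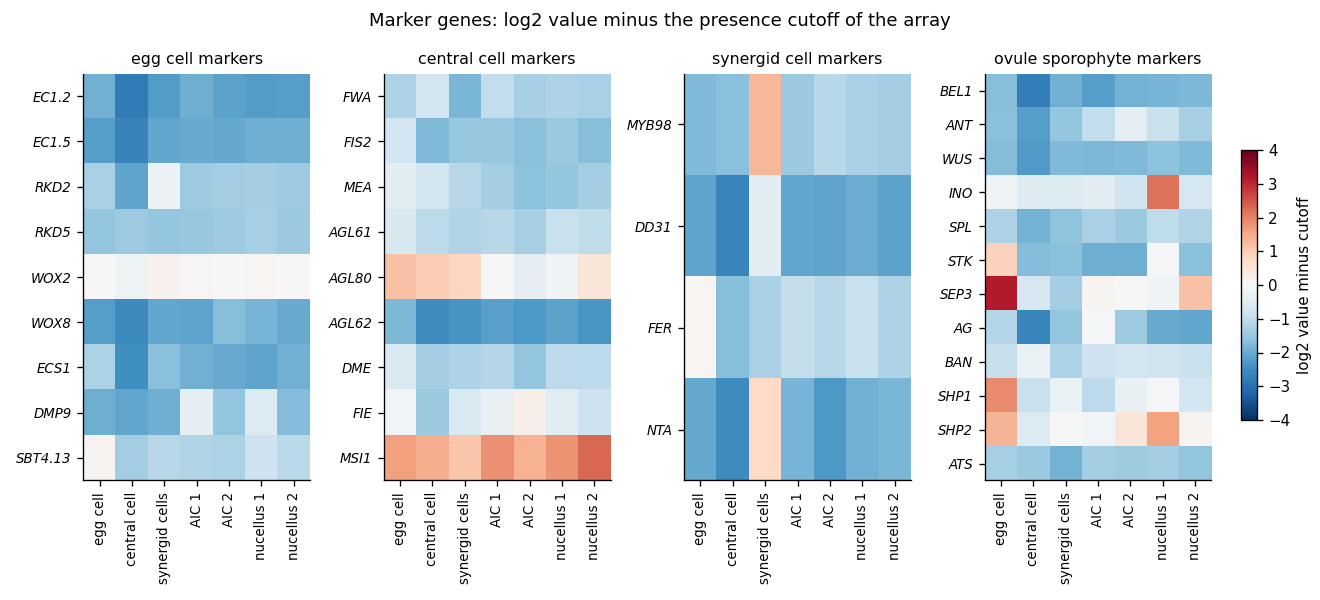
Colours give the log2 expression value minus the presence cutoff of the array for the measured marker genes of the egg cell, central cell, synergid cells and ovule sporophyte (rows) on the 7 arrays (columns), red above and blue below the cutoff. *MYB98* and *NTA* are above the cutoff in the synergid cells only, egg cell markers are near or below it on every array, and *SEP3*, *STK*, *SHP1* and *SHP2* are above it in the egg cell.

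Across 13 gene lists with 174 measured genes, 9 genes were egg-high (5.17%, against 1.59% of all genes) and none was egg-low. The lists were assembled from well-studied genes, and that of the core cell cycle from the study's own calls, which limits a reading of this excess. The 9 genes act in cytokinin activation (*LOG1* and *LOG8*), in gene silencing (*DDM1*, *AGO6* and *RDR1*), in DNA replication (*PCNA2*), in MAP kinase signalling (*MKK6*) and in floral and ovule identity (*SEP3* and *STK*).

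Cytokinins are made in 2 steps, in which IPT enzymes build the precursor and LOG enzymes release the active hormone, while CKX enzymes degrade it. Both egg-high genes of this list were *LOG* genes. *LOG1* (AT2G28305) had 6.69 in the egg cell and 3.82 in both the central and the synergid cells. *LOG8* (AT5G11950) had 7.01 in the egg cell, 4.39 in the central cell and 2.61 in the synergid cells. Neither gene was above the cutoff outside the egg cell within the gametophyte. *LOG5* (AT4G35190) fell short of the threshold, with 6.86 in the egg cell, 4.99 in the central cell and 5.18 in the synergid cells. So did *LOG3* (AT2G37210), with 5.29 in the egg cell, 3.47 in the central cell and 3.99 in the synergid cells. Altogether 4 of 6 measured *LOG* genes were above the cutoff in the egg cell, against 27.2% of all genes, and 5 were highest there of the 3 cells, against 26.1% of all genes.

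The same enzymes varied in the younger samples. *LOG8* was at 6.27 and 4.76 in the AIC and at 5.82 and 3.24 in the nucellus. *LOG1* was at 3.68 and 3.62 in the AIC and at 6.25 and 3.79 in the nucellus. In each pair with a high value the replicates therefore fell on both sides of the cutoff.

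The other steps showed no such pattern. None of 9 *IPT* genes was above the cutoff in the egg cell, against 27.2% of all genes, and none was highest there. *IPT9* (AT5G20040), which encodes an enzyme acting on tRNA, was at 4.93 in the egg cell, 5.91 in the central cell and 6.71 in the synergid cells. Of 6 *CKX* genes, *CKX2* (AT2G19500) alone was above the cutoff in the egg cell, with 6.25 there, 5.75 in the central cell and 6.39 in the synergid cells. Over all 26 measured genes of cytokinin metabolism, the median difference between the egg cell and the mean of both other cells was -0.17, close to the -0.12 of all genes. The egg-high genes were thus 2 members of 1 enzyme family in a list that was otherwise near the overall median.

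Among 11 measured genes of DNA methylation, 1 was egg-high. *DDM1* (AT5G66750), a chromatin remodeller required for methylation of transposons, had 6.18 in the egg cell, 3.38 in the central cell and 2.82 in the synergid cells. It was 3.43 and 4.39 in the AIC and 3.58 and 3.52 in the nucellus, so the egg cell was the only sample with a P call. The methyltransferase genes differed less. *MET1* (AT5G49160), for maintenance of CG methylation, was at 3.53 in the egg cell, 3.76 in the central cell and 3.53 in the synergid cells, below the cutoff in each. *CMT3* (AT1G69770), for CHG methylation, was at 5.33 in the egg cell, 4.96 in the central cell and 4.94 in the synergid cells. *VIM1* (AT1G57820), a cofactor of CG maintenance, was at 4.33 in the egg cell, 5.85 in the central cell and 5.11 in the synergid cells. *DDM1* thus stood alone, and the median of the list was -0.12, the same as that of all genes.

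Of 21 genes of small RNA pathways, 2 were egg-high. *AGO6* (AT2G32940), an ARGONAUTE of RNA-directed DNA methylation, had 7.20 in the egg cell, 4.15 in the central cell and 3.59 in the synergid cells. In the AIC it was 3.25 and 5.10 and in the nucellus 3.43 and 3.26, and it was the only listed gene at least 2 above each of the 6 other arrays. *RDR1* (AT1G14790), an RNA-dependent RNA polymerase known from antiviral silencing, had 7.90 in the egg cell, 5.77 in the central cell and 5.87 in the synergid cells. It was above the cutoff on all 7 arrays, with 5.39 and 7.50 in the AIC and 6.12 and 6.71 in the nucellus.

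Other members did not reach the threshold against both cells. *AGO1* (AT1G48410), the main ARGONAUTE of microRNAs, had 9.17 in the egg cell, 6.47 in the central cell and 7.76 in the synergid cells, with a margin of 1.41. *AGO4* (AT2G27040), which like *AGO6* acts in RNA-directed DNA methylation, had 7.13 in the egg cell, 6.31 in the central cell and 6.97 in the synergid cells. *AGO9* (AT5G21150), which in *Arabidopsis* ovules restricts the number of germline precursors, was below the cutoff in each, with 4.60 in the egg cell, 4.55 in the central cell and 3.99 in the synergid cells. *DCL3* (AT3G43920), the Dicer-like enzyme of RNA-directed DNA methylation, was above the cutoff in the egg cell only of the 3 cells, with 5.12 in the egg cell, 4.16 in the central cell and 4.26 in the synergid cells. *DCL4* (AT5G20320), a Dicer-like enzyme of trans-acting siRNAs, ran the other way with 6.25 in the egg cell, 7.46 in the central cell and 6.31 in the synergid cells. The 2 polymerase subunit genes of the pathway, *NRPD1* (AT1G63020) and *NRPE1* (AT2G40030), had their lowest value of the 3 cells in the egg cell, at 4.98 and 3.67. By the cutoffs, however, *NRPD1* was above in the egg cell only, since 5.57 in the central cell and 5.07 in the synergid cells fell below theirs. By value alone, of the named genes of RNA-directed DNA methylation, *AGO4*, *AGO6* and *DCL3* were thus highest and *NRPD1* and *NRPE1* lowest in the egg cell. The median of the whole list was -0.01.

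The core cell cycle list holds 40 genes named by the study. The study detected them in the AIC or in the *Arabidopsis* megaspore mother cell, but not in both. They are thus a selected part of its core cell cycle set, and calls on the AIC arrays took part in their choice. Among the 36 measured, 1 was egg-high. *PCNA2* (AT2G29570), a sliding clamp of DNA polymerases, had 8.43 in the egg cell, 4.53 in the central cell and 3.42 in the synergid cells, the largest margin of all listed genes (3.89). It was also high in the AIC, with 7.77 and 8.75, and at 7.36 on 1 nucellus array, against 2.98 on the other. Its paralogue *PCNA1* (AT1G07370) was below the cutoff in the gametophyte cells, with 4.42 in the egg cell, 4.34 in the central cell and 4.59 in the synergid cells. It was at 5.35 and 5.13 in the AIC and at 5.35 and 4.14 in the nucellus, above the cutoff on the same 3 of these 4 arrays as *PCNA2*. Both genes are close copies, and how far their probe sets share signal was not tested.

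Other regulators of the cycle followed below the threshold. *CYCA2;2* (AT5G11300), an A-type cyclin, had 6.66 in the egg cell, 4.37 in the central cell and 4.73 in the synergid cells. *E2FA* (AT2G36010), an activating E2F factor, had 6.49 in the egg cell, 4.93 in the central cell and 4.12 in the synergid cells. Both were above the cutoff in the egg cell only among the 7 arrays, with margins of 1.93 and 1.56. Of 13 cyclin genes in this list 2 were above the cutoff in the egg cell, against 27.2% of all genes. The mitotic *CYCB1;1* (AT4G37490) was not, with 3.73 in the egg cell, 3.90 in the central cell and 3.17 in the synergid cells. All 4 measured *ORC* genes, which encode origin recognition subunits, were below the cutoff there. So were all 4 measured *KRP* genes, which encode inhibitors of cyclin-dependent kinases. Only 27.2% of all genes were above it, so nothing is read from these counts. Over this selected list the median difference was -0.08.

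In the MAP kinase cascade, 1 of 12 genes was egg-high, but the list as a whole leaned towards the egg cell. *MKK6* (AT5G56580), a MAP kinase kinase that acts in cytokinesis, had 7.51 in the egg cell, 4.21 in the central cell and 4.73 in the synergid cells. In the younger samples it was high on 1 array of each pair, with 3.90 and 5.95 in the AIC and 3.82 and 7.49 in the nucellus. *MPK4* (AT4G01370), a MAP kinase downstream of *MKK6*, had 5.69 in the egg cell, 4.66 in the central cell and 4.77 in the synergid cells, and was above the cutoff in the egg cell only. *YDA* (AT1G63700), the MAP kinase kinase kinase that promotes zygote elongation, had 6.11 in the egg cell, 4.93 in the central cell and 5.05 in the synergid cells. It was likewise above the cutoff in the egg cell only. Of the 12 genes, 8 were highest in the egg cell of the 3 cells (66.7%, against 26.1% of all genes), and the median difference was 0.62. Among the 8 measured housekeeping genes 62.5% were highest there, with a median difference of 0.69, so this lean was not particular to the MAP kinase list.

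**Figure D5:**
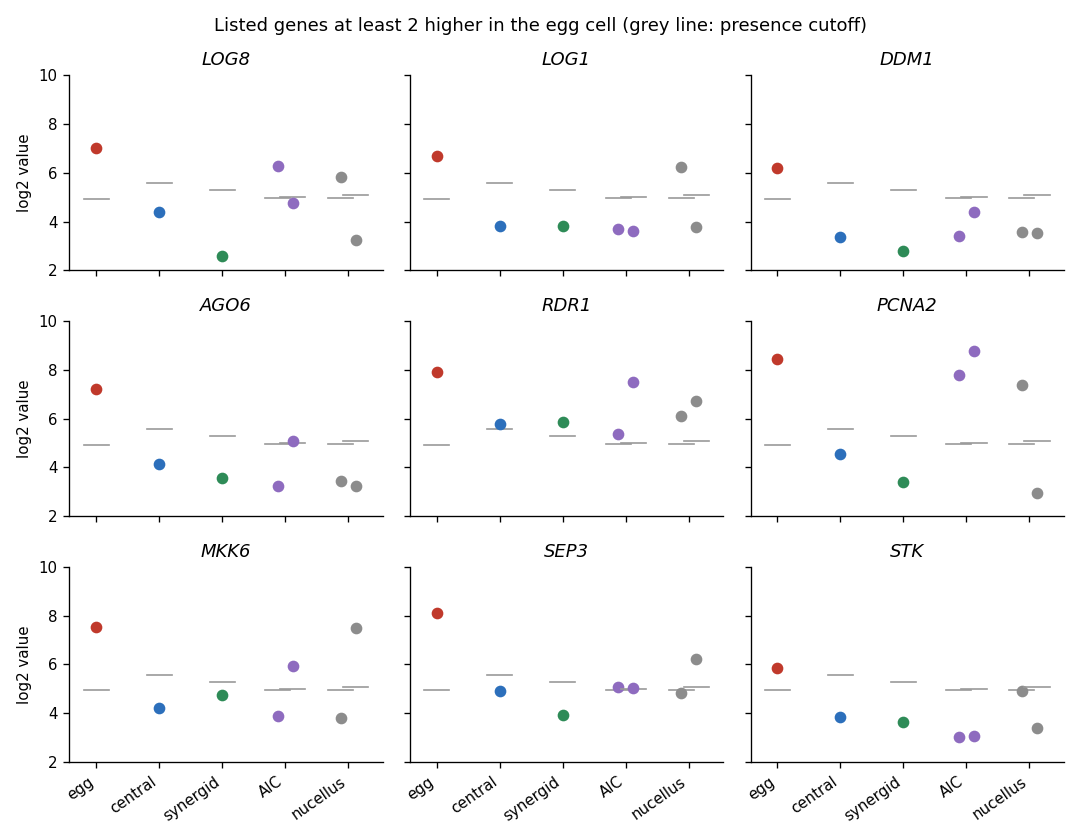
Points show the log2 expression value of each of the 9 listed egg-high genes in each gametophyte cell type and in both replicates of the AIC and the nucellus, and grey lines give the presence cutoff of each array. *DDM1*, *AGO6* and *LOG1* are high in the egg cell and low in the AIC apart from *AGO6* on 1 AIC array, whereas *PCNA2* is as high in the AIC as in the egg cell.

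The remaining lists held no egg-high gene. Of 15 measured regulators of the zygote and embryo, *YDA* was the only one above the cutoff in the egg cell, against 27.2% of all genes. *BBM* (AT5G17430), an AP2 factor that can induce embryos when overexpressed, was at 3.30 in the egg cell, 3.93 in the central cell and 3.30 in the synergid cells. *LEC1* (AT1G21970), a key regulator of embryo identity, was at 4.23 in the egg cell, 4.90 in the central cell and 4.09 in the synergid cells. Among 9 Polycomb group genes, 4 were above the cutoff in the egg cell, against 27.2% of all genes. *SWN* (AT4G02020), a histone methyltransferase, was highest there with 6.77, against 4.60 in the central cell and 5.90 in the synergid cells. *EMF2* (AT5G51230), a subunit of the same kind of complex, was lowest there with 5.72, against 6.49 in the central cell and 6.79 in the synergid cells. For 12 genes of auxin synthesis and perception the median difference was 0.01. The 8 measured housekeeping genes, all above the cutoff in the egg cell, had a median difference of 0.69. The actin gene *ACT2* (AT3G18780) was at 9.20 in the egg cell, 6.89 in the central cell and 7.46 in the synergid cells, and the ubiquitin gene *UBQ10* (AT4G05320) at 5.75 in the egg cell, 6.37 in the central cell and 6.36 in the synergid cells. Genes of general function thus also read higher on the egg cell array by their median, and quantile normalization brought their median to 0.03.

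The egg-high calls of the 9 listed genes depended on the treatment of background. All 9 held when each array was set to its median. This was built in, since the egg cell array had the lowest median of the 3 and every margin rose. After quantile normalization 7 held, and the margins of *RDR1* and *STK* were 1.45 and 1.91. With values below the highest cutoff raised to it, 3 held, namely *PCNA2* (2.84), *SEP3* (2.52) and *RDR1* (2.03). For *DDM1* and *STK* the margin was then 0.59 and 0.27, since most of their difference lay below the level at which the central cell array gives P calls.

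The egg-low set held 5 genes with 4 distinct profiles, all of them named here because they are few. AT2G07698 and ATMG01190 had the same values on every array and cannot be told apart. They were at 4.87 in the egg cell, 10.72 in the central cell and 7.83 in the synergid cells, against 10.30 and 9.56 in the AIC and 8.98 and 8.62 in the nucellus. By its identifier ATMG01190 belongs to the mitochondrial genome and AT2G07698 to chromosome 2, and the egg cell was the only sample in which this signal was below the cutoff. AT1G57600 was at 4.95 in the egg cell, 7.02 in the central cell and 7.93 in the synergid cells, with 6.38 to 8.35 in the younger samples. AT2G35330 was at 3.17 in the egg cell, 5.26 in the central cell and 5.87 in the synergid cells, with 5.61 to 5.70 in the younger samples. AT2G03510 was at 3.79 in the egg cell, 5.90 in the central cell and 6.11 in the synergid cells, and on 1 nucellus array it was equally low (6.93 and 3.64).

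The egg-low genes were thus broadly expressed genes that read low in the egg cell, not genes restricted to its neighbours. All 5 were above the cutoff on both AIC arrays and on the synergid cell array, and 4 on the central cell array. They were lower in the egg cell than the AIC mean in 5 of 5 cases and by at least 2 in 3, and lower than the nucellus mean in 5 of 5 and by at least 2 in 4. Over all genes, 0.789% were at least 2 below the AIC mean and 1.54% at least 2 below the nucellus mean. The egg-low genes were chosen for a low value on the same egg cell array, so nothing is read from this excess. A margin of at least 2.5 was reached only by the profile shared by AT2G07698 and ATMG01190, and 17 further genes were 1.5 to 2 lower in the egg cell than in both other cells.

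Egg-high genes were spread over all 5 nuclear chromosomes, as given by their *Arabidopsis* identifiers. The share of measured genes that were egg-high lay between 1.23% (39 of 3168) on chromosome 4 and 2.04% (100 of 4903) on chromosome 5. Of 77 mitochondrial genes 2 were egg-high and 1 was egg-low, and of 3 chloroplast genes 2 were egg-high. The 2 chloroplast genes had identical values on all arrays and count as 1 signal, as do 2 further pairs, so that the 340 egg-high genes comprised 337 distinct profiles.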

How the data were processed

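Expression was measured on 7 ATH1 GeneChips, 1 for each gametophyte cell type (egg, central, synergid) and 2 each for the AIC and the sporophytic nucellus, as per the labels. The authors deposited log2 expression values for 21492 features, made from probes grouped by *Arabidopsis* gene. The normalization behind them is not given in the labels or methods used here, and RMA is named in the methods for other log2 values. The values were used as deposited, without 64 control features, and 0 values were missing. The members and gene lists were chosen with earlier results of these data known.

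The presence cutoff of each array was the value that separates p values of 0.02 or lower from larger ones in the first 1999 rows of the *Bg*PANP p values that accompany the study. It placed each of these features correctly and was applied to all genes. The deposited table holds identifiers only. *PCNA2* and the other core cell cycle genes were named as in the study. The other names in the lists were paired with identifiers from general knowledge of *Arabidopsis*, without an annotation to check them, and genes outside the lists were left unnamed. The genes named were the measured markers and the egg-high list members, with neighbours in a family or pathway added after their values were seen.

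Differences were computed per gene with Python 3.11.15, numpy 2.4.6 and pandas 2.3.3 and drawn with matplotlib 3.10.9. The code of the rule was checked on simulated arrays with far less noise than between replicate arrays here. That check does not bear on the precision of these data. No test was run between cell types with 1 array each. The number of arrays limits the precision. The alternatives were other limits, scalings, filters and a common floor, and each replicate of the AIC and nucellus left out in turn.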

Additional observations from a re-analysis of the deposited data

How the results depend on the processing

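The number of egg-high genes (340) was 677 at a difference of 1.5 and 71 at 3. It was 205 after quantile normalization, 636 relative to the presence cutoff of each array and 152 with a common floor. Leaving out the synergid cells array gave 847, and the remaining alternatives kept the count within 1.5 times. The number of egg-low genes (5) was 22 at a difference of 1.5 and 0 at 3. It was 2 with each array set to its median, 8 after quantile normalization, 2 relative to the cutoff and 2 with the floor. Leaving out the central cell array gave 131 egg-low genes and leaving out the synergid cells array gave 39. Both of these omissions were chosen after seeing the data. At a difference of 1, 266 egg-high genes were above the AIC mean and 5 egg-low genes were below it. With 1 replicate left out in turn, 161 to 199 egg-high genes were at least 2 above the AIC and 197 to 229 above the nucellus, and 3 to 4 egg-low genes were at least 2 below the AIC and 4 to 5 below the nucellus.

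Of the median differences of the lists between the egg cell and the mean of both other cells, that of the housekeeping genes moved to 0.030 under quantile normalization. With only members above the cutoff on 1 or more of the 3 arrays, the median was 0.17 for egg cell markers, 2.03 for ovule sporophyte markers, 1.56 for cytokinin metabolism, 0.77 for small RNA pathways, 0.80 for the core cell cycle and 0.31 for zygote and embryo regulators. This filter keeps genes for a high value on any of the 3 arrays, most often that of the egg cell, and its medians support no direction. With a common floor, which was also added after seeing the data for the listed genes, 3 of the 9 listed genes stayed egg-high. Of the values of single named genes under the median and quantile scalings, 78 moved by less than the pooled SD between replicate arrays (0.49). The other 4 moved by more, and 0 changed direction past it. The median scaling shifts all 41 named genes by the same small amount, so none of them could move past 0.49 there. All 4 moved under quantile normalization, and only that part of the count is informative. Lists by annotation text were not run, since no annotation was used here.

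No paired analysis was possible because the egg, central and synergid cells have 1 array each, and the AIC and nucellus arrays enter no test here. With 1 array per cell type, no difference between these cells has a replicate check. Cutoffs between 4.94 and 5.59 limit what can be seen in low genes, and a value below the cutoff does not show that a transcript was absent.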

Other observations

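The AIC and nucellus replicates differed more for egg-high genes than for genes in general. A gap of at least 2 between replicates of the AIC or of the nucellus occurred in 89 of the 340 egg-high genes (26.2%), against 4.52% of all genes. These shares are not matched for detection. Above the cutoff on none of the 4 AIC and nucellus arrays were 26.2% of egg-high genes but 64.3% of all genes. The excess is therefore not read as a trait of the egg-high genes. *PCNA2* was at 7.36 and 2.98 on the nucellus arrays, *MKK6* at 3.82 and 7.49, and *LOG1* at 6.25 and 3.79. Values of such genes in the young ovule therefore rest on 1 array of the pair, and the level at which replicate gaps of this kind occur in the gametophyte cells is unknown.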
